A study of Mus musculus with 27 samples.

Results

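Messenger RNAs for 6 genes of the B cell receptor pathway were followed in mouse macrophage cultures: Ighm, Igkc, Cd79a, Cd79b, Blnk and Cd72. They were chosen by name from the 29872 genes of the count table, and all 6 were found. Macrophages were grown from bone marrow of male C57BL/6 mice aged 8 to 10 weeks, for 5 days in medium with bovine serum (20%) and L-cell supernatant (10%), a source of macrophage growth factor. The adherent cells were then reseeded and kept for 24 h under 1 of 4 conditions, and polyadenylated RNA was sequenced in 27 libraries. In knockout (KO) cells from LysM-Cre+/+; GRIP1fl/fl mice, Cre made from the Lyz2 locus deletes a floxed part of Ncoa2, the gene of the glucocorticoid receptor coregulator GRIP1. KO libraries numbered 3 with 10 ng/ml interleukin 4 (IL4), 4 with 500 nM corticosterone (Cort), 4 with 100 nM dexamethasone (Dex) and 4 with vehicle. Wild-type (WT) libraries numbered 3 in each of the same conditions. The WT genotype is labelled LysM-Cre+/+ with GRIP1wt/wt, so Cre would be present in both genotypes, while the sample titles call these mice BL6. Cre from the Lyz2 locus acts in myeloid cells, so a B cell in a KO culture would keep an intact Ncoa2. Whether replicate libraries are from different mice is not stated, so p-values describe the variation among these libraries and that variation may be technical.

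On a B cell, membrane-bound antibody is the antigen-binding part of the receptor. Ighm encodes the constant part of its mu heavy chain and Igkc that of its kappa light chain, and both make antibody chains after V(D)J joining in the B lineage. The constant regions are also transcribed as germline transcripts that need no joining. CD79A and CD79B form the dimer that carries the signal into the cell, where the kinase SYK acts on it. BLNK is the adaptor that then joins SYK to BTK and PLCG2. CD72 is a C-type lectin coreceptor that recruits the phosphatase SHP-1 (Ptpn6) and damps the signal, and the semaphorin SEMA4D is its ligand. Antibody chains and the CD79 proteins are markers of the B lineage, whereas Blnk and Cd72 are also made by macrophages. Bone marrow, the source of these cultures, is where B cells develop.

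Sequences upstream of RefSeq starts are shown for a gene of the B lineage (Cd79a) and the pair shared with macrophages (Blnk and Cd72). RefSeq promoter windows on GRCm38.p6 matched 3 of the 6 members. The 250 bases before each RefSeq start are printed from 5′ to 3′, with capitals marking matches to the motifs searched.
Cd79a (chr7:24897247-24897496, plus strand): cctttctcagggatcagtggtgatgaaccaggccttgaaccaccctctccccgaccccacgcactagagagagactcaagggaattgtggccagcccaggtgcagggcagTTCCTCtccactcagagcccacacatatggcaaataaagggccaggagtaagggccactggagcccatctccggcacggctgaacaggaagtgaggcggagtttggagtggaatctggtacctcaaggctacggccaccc
Blnk (chr19:40994222-40994471, minus strand): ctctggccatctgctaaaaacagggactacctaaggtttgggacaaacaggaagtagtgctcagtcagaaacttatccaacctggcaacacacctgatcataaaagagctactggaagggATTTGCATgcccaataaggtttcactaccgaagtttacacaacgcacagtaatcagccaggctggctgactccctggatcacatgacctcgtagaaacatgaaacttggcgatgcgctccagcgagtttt
Cd72 (chr4:43454627-43454876, minus strand): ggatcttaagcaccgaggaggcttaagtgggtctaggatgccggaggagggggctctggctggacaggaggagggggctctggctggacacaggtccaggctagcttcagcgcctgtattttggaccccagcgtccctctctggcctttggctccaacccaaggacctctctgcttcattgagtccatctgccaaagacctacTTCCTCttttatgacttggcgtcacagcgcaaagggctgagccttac
Both strands were searched for the octamer ATGCAAAT, the motif of the immunoglobulin octamer factors, for GAGGAA, a core bound by PU.1 (a factor of macrophages and B cells), and for CCCNNGGG, a core bound by the B cell factor EBF. Blnk held the octamer in reverse, as ATTTGCAT, at -130 to -123 from the start. Cd79a and Cd72 held GAGGAA in reverse, as TTCCTC, at -140 to -135 in Cd79a and at -47 to -42 in Cd72. None of the 3 windows matched CCCNNGGG. Of 32851 such windows over all genes, 1.6% held the octamer, 23.3% held GAGGAA and 11.8% held CCCNNGGG. A match is a description of letters and not evidence of binding. Only these exact letters were searched, so a window without a match may still hold a site of other letters.

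In GENCODE vM21 on GRCm38, Ighm (ENSMUSG00000076617) lies on the minus strand at chr12:113418558-113422730. Igkc (ENSMUSG00000076609) lies on the plus strand at chr6:70726435-70726966. Cd79a (ENSMUSG00000003379) lies at chr7:24897381-24902197 on the plus strand and Cd79b (ENSMUSG00000040592) at chr11:106311341-106314762 on the minus strand. Blnk (ENSMUSG00000061132) spans chr19:40928927-40994535 and Cd72 (ENSMUSG00000028459) chr4:43446462-43454628, both on the minus strand. The printed window of Blnk (chr19:40994222-40994471) therefore lies within the gene by GENCODE, downstream of its start. That of Cd79a runs past the GENCODE start of the gene, and that of Cd72 reaches it with its last bases. Counts were summed over the exons of each gene. The exons of Cd72 overlap those of Tesk1 on the opposite strand, and whether reads were counted by strand is not given in the sources used. Tesk1 averaged 123 to 163 CPM over the groups, so Cd72 values may include reads of Tesk1.

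The 6 genes separated by level. CPM, counts scaled to library size, were divided by the exon length in kb to compare genes. With vehicle, Cd72 averaged 117 ± 7.05 CPM per kb in KO cells (SD, n = 4) and 107 ± 8.30 in WT cells (SD, n = 3). Blnk averaged 26.2 ± 1.34 CPM per kb in KO cells and 25.3 ± 1.31 in WT cells. The antibody genes and Cd79b lay far below. Ighm averaged 2.69 ± 0.703 CPM per kb in KO cells and 5.05 ± 1.89 in WT cells. Igkc averaged 1.99 ± 0.445 in KO cells and 6.86 ± 5.81 in WT cells, and Cd79b 2.53 ± 0.689 in KO cells and 3.5 ± 0.256 in WT cells. Cd79a was the lowest, at 0.0306 ± 0.0228 CPM per kb in KO cells and 0.0654 ± 0.0957 in WT cells.

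Cd79a and Cd79b encode the partners of 1 dimer, but their counts were unequal. Cd79b had 38 to 179 counts in every library. Cd79a had 0 to 8 counts, with 0 in 13 of the 27 libraries, and did not pass the filter on low counts. In the 4 KO libraries with Dex Cd79a had 0 counts, which allows up to 0.0284 CPM over the group, a limit that covers counting error only. The most Cd79a was in WT cells with IL4, with 8, 7 and 2 counts. WT cells with vehicle had 7, 1 and 0 counts and KO cells with vehicle 2, 1, 3 and 0. Without the filter, edgeR called Cd79a in 0 of the 15 comparisons, with 0 at an unadjusted p under 0.05.

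**Figure D1:**
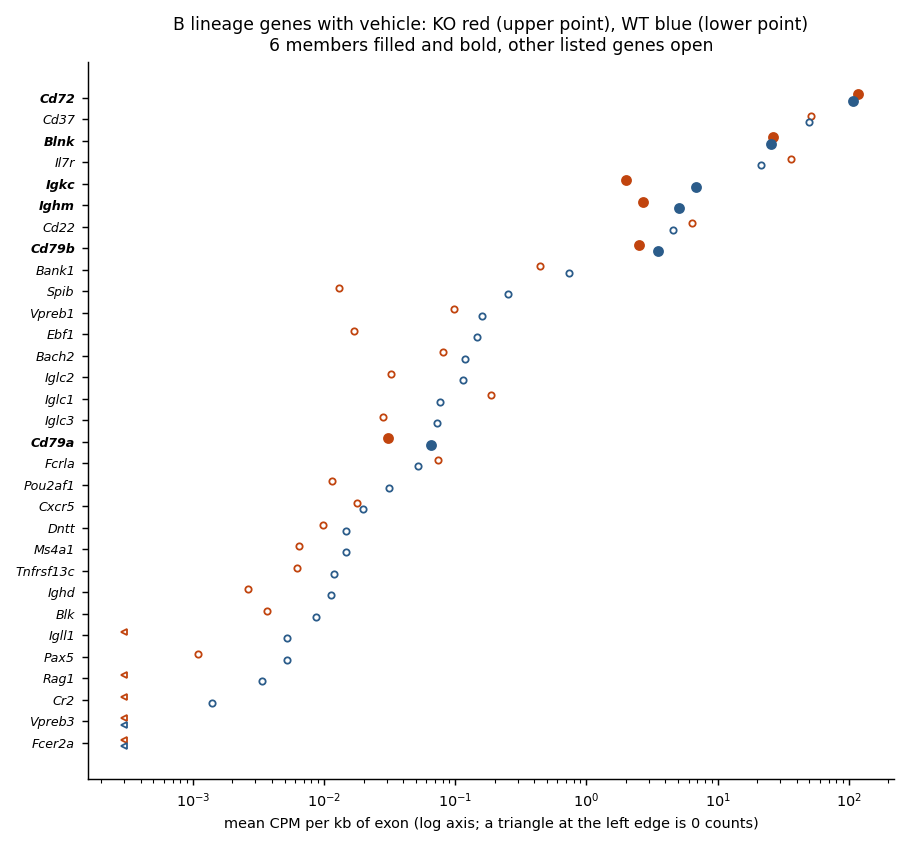
Mean CPM per kb of exon (log axis) of the 6 members (filled points, bold names) and of other B lineage genes (open points) in KO libraries with vehicle (red, n = 4) and WT libraries with vehicle (blue, n = 3); a triangle at the left edge is 0 counts. Cd72 and Blnk lie at 25 to 117 CPM per kb, Ighm, Igkc and Cd79b at 1.99 to 6.86, and Cd79a at 0.0306 and 0.0654.

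Most of the other genes that define B cells stayed under 1 CPM in every group. Of 28 other B lineage genes listed, 26 were in the table, 7 passed the filter and 6 reached 1 CPM in a group. Ms4a1 (CD20), a surface marker of B cells, had 27 counts summed over all 27 libraries. Pax5, the factor that commits cells to the lineage, had 18 counts and Blk, a B cell kinase, 8. Rag1, which joins antibody gene segments, had 2 counts and Igll1, part of the surrogate light chain, had 1. Other genes under 1 CPM had more, with 136 counts of Vpreb1 over 26 libraries, 134 of Spib over 21 and 119 of Fcrla over 27. The genes that reached 1 CPM were Il7r (up to 284 CPM in a group), Cd37 (199), Cd22 (56.5), Bank1 (5.50), Ebf1 (2.20) and Bach2 (1.54). Many of these are not confined to B cells, and Cd37 and Cd22 are known from other leukocytes. The list's summed level, set mainly by Il7r and Cd37, was 272 to 566 CPM per library. The 10 macrophage markers summed to 6548 to 7804 CPM per library, with all 10 at 1 CPM or more in a group.

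Counts of other antibody segments were concentrated in some libraries. The 9 constant segments other than Ighm and Igkc held 0 to 211 counts per library, led by Ighg2b, Igha and Ighg2c with 301, 276 and 217 counts in all. The WT vehicle library numbered 1 had the most, 211 counts in other constant segments and 236 in variable segments, along with 198 Igkc counts and 373 Ighm counts. The KO Dex library numbered 1 had 39 counts in other constant segments and 22 of Igkc. The 3 other KO Dex libraries had 1, 0 and 1 counts in other constant segments and 0 Igkc counts. Those 3 libraries still held 14, 24 and 23 counts of Ighm. Jchain, which joins secreted antibody molecules, had 1 to 30 counts per library, with 30 in the WT vehicle library numbered 1. The plasma cell list, to which Jchain belongs, summed to 195 to 290 CPM, with Xbp1, which macrophages also express, at up to 211 CPM in a group. Reads across joined segments can be lost to counting, so segments are compared only between libraries.

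**Figure D2:**
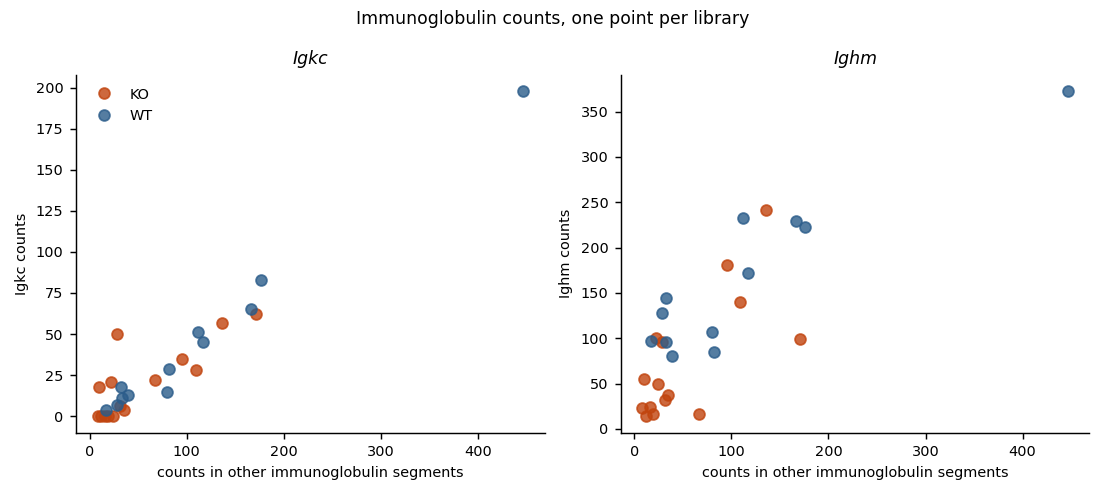
Counts of Igkc (left) and Ighm (right) in each library against the counts in all other immunoglobulin segments (constant and variable) of that library, with KO libraries in red (n = 15) and WT libraries in blue (n = 12). The WT vehicle library numbered 1 lies at the upper right, with 198 Igkc and 373 Ighm counts, and several KO libraries have 0 Igkc counts but 14 or more of Ighm.

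Libraries held 20162729 to 48023102 counts in genes. Ncoa2 averaged 18.5 to 22.1 CPM over the KO groups and 63.3 to 86.3 CPM over the WT groups. Markers of other cells moved with genotype and with 1 set of libraries. The 8 stromal markers summed to 11.4 to 46.6 CPM in KO libraries, to 671 to 819.5 CPM in the 4 WT libraries numbered 1, and to 160 to 348 CPM in the other WT libraries. The 12 neutrophil markers summed to 94.1 to 231 CPM in KO libraries, to 318 to 433 CPM in WT libraries numbered 1 and to 155 to 214 CPM in the other WT libraries. The 8 markers of conventional dendritic cells summed to 523.5 to 674 CPM with IL4, and with vehicle to 75.0 to 233.5 CPM in KO and 27.2 to 54.1 CPM in WT libraries. Their sums under the glucocorticoids are given with those results. Erythroid markers reached at most 0.324 CPM. In 4 libraries without IL4 the IL4 target Arg1 was at 67.1 to 117 CPM: KO vehicle 2 and 3, KO Dex 2 and WT Dex 1. KO Dex 4 was at 12.2 CPM and is not counted among them, and the other libraries without IL4 were at most at 4.27 CPM. Values without these libraries and without the WT libraries numbered 1 stand beside the results they change. In bulk RNA, fewer cells of a type and less RNA per cell cannot be told apart.

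**Figure D3:**
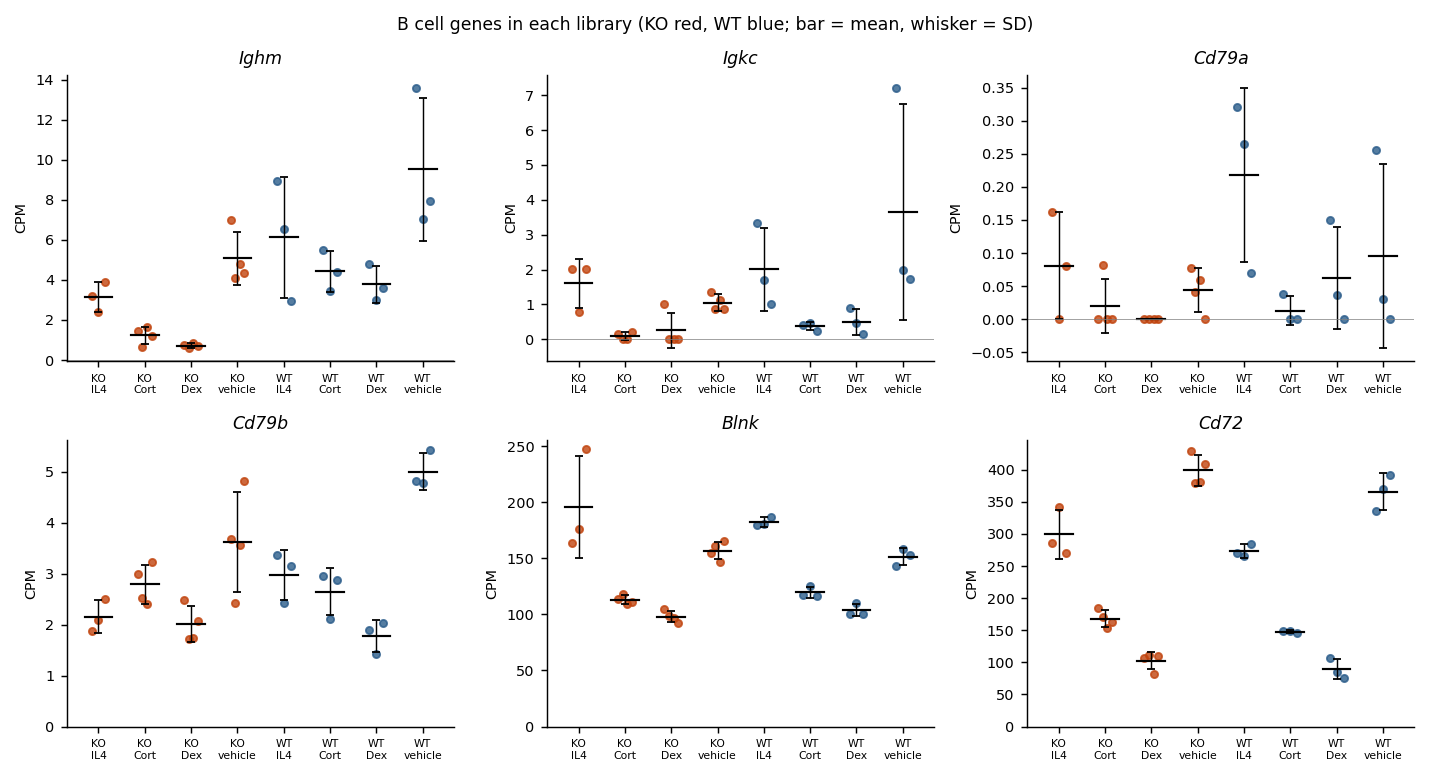
CPM of the 6 genes in each library, by group, with KO groups in red at the left and WT groups in blue at the right; the bar is the mean and the whisker the SD (n = 3 or 4). Cd72 separates each treatment from vehicle in both genotypes, Blnk in KO cells with IL4 runs from 164 to 248 CPM and overlaps vehicle, and Igkc rests on few libraries, such as the WT vehicle library at 7.22 CPM and the KO Dex library at 1.02 CPM.

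Dexamethasone gave the lowest Cd72 and Blnk of all conditions, in both genotypes. Compared with vehicle, 4 of the 5 members tested fell in KO cells, where of the 14589 genes tested 18.4% were called, 9.1% higher and 9.29% lower. In WT cells all 5 fell, where 13.7% of genes were called, 7.66% higher and 6.03% lower. The median log2 fold change of the 5 was -1.96 in KO cells and -1.49 in WT cells, and that of all genes tested was -0.002 in KO cells and 0.01 in WT cells. No member rose. Markers of other cells moved in the same libraries. Those of conventional dendritic cells summed to 29.4 to 55.1 CPM in KO cells with Dex, against 75.0 to 233.5 CPM with vehicle, and 3 of the 5 tested fell and 1 rose. In WT cells they summed to 16.5 to 41.55 CPM with Dex, against 27.2 to 54.1 CPM with vehicle, and 1 fell and 1 rose. Mast cell and basophil markers summed to 0.891 to 1.52 CPM in KO cells with Dex, against 2.42 to 5.34 CPM with vehicle, and 2 of the 4 tested fell. In WT cells they summed to 0.702 to 2.69 CPM with Dex, against 2.02 to 6.20 CPM with vehicle, and 1 of the 4 fell. The part of these cells in the members' changes was not tested.

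Cd72, the inhibitory coreceptor, was at 107, 111, 82.6 and 110.2 CPM in KO cells with Dex, against 429, 379, 380.2 and 409 CPM with vehicle. In WT cells it was at 107, 85.5 and 76.0 CPM with Dex, against 336, 371 and 392 CPM with vehicle. All Dex libraries lay below all vehicle libraries of their genotype. The log2 fold change was -1.96 ± 0.10 in KO cells (SE, adjusted p = 7.05e-13) and -2.03 ± 0.12 in WT cells (adjusted p = 6.74e-12), a level 3.89-fold lower in KO cells and 4.10-fold lower in WT cells. The adaptor gene Blnk was at 105, 98.7, 97.1 and 92.2 CPM in KO cells with Dex, against 155, 161, 147 and 165 CPM with vehicle. In WT cells it was at 100.3, 109.9 and 100.8 CPM with Dex, against 143, 158.5 and 153 CPM with vehicle. Its groups did not overlap either, but the change was smaller, at -0.68 ± 0.08 in KO cells (adjusted p = 2.1e-06) and -0.55 ± 0.10 in WT cells (adjusted p = 0.000265).

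Ighm, the mu heavy chain, was at 0.739, 0.590, 0.856 and 0.715 CPM in KO cells with Dex, against 7.01, 4.10, 4.81 and 4.36 CPM with vehicle. The change was -2.79 ± 0.34 (adjusted p = 1.58e-06), the largest of the members in KO cells with Dex. In WT cells Ighm was at 4.78, 2.98 and 3.58 CPM with Dex, against 13.6, 7.02 and 7.96 CPM with vehicle, a change of -1.34 ± 0.33 (adjusted p = 0.00666). The groups did not overlap in either genotype. In WT cells the call was lost without the vehicle library numbered 1 (-0.99, adjusted p = 0.0611). Without all WT libraries numbered 1 it was -1.19 (adjusted p = 0.0216).

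Igkc, the kappa light chain, was detected in 1 of 4 KO libraries with Dex, at 1.02 CPM (22 counts), with 0 counts in the other 3. KO cells with vehicle had 1.36, 0.860, 1.14 and 0.873 CPM. The change was -2.24 ± 0.89 and did not pass (adjusted p = 0.0869), and it was -7.9 (adjusted p = 0.000833) without the KO Dex library numbered 1, where every remaining library was at 0. In WT cells Igkc was at 0.896, 0.478 and 0.148 CPM with Dex, against 7.22, 1.99 and 1.74 CPM with vehicle. The change was -2.89 ± 0.87 (adjusted p = 0.0284). That call was lost without the WT Dex library numbered 2 (adjusted p = 0.1) or 3 (0.134), without the vehicle library numbered 1 (-1.94, adjusted p = 0.186) and by DESeq2 (0.0974). Without the WT libraries numbered 1 it was -2.56 (adjusted p = 0.116).

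Cd79b, the signalling chain, was at 2.49, 1.73, 1.75 and 2.08 CPM in KO cells with Dex, against 3.68, 2.42, 3.57 and 4.83 CPM with vehicle. The lowest vehicle library overlapped the Dex group, and the change was -0.86 ± 0.18 (adjusted p = 0.00148). In WT cells Cd79b was at 1.89, 1.43 and 2.03 CPM with Dex, against 4.81, 4.78 and 5.43 CPM with vehicle, with no overlap. The change was -1.49 ± 0.21 (adjusted p = 2.18e-05). Both calls held when each library of the groups was left out in turn, with adjusted p up to 0.00943 in KO cells and up to 0.000447 in WT cells.

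Most members also fell with corticosterone, the natural glucocorticoid of mice. In KO cells 4 of the 5 tested fell and 0 rose, where 12.1% of genes were called, 6.01% higher and 6.07% lower. In WT cells all 5 fell, where 5.94% of genes were called, 3.48% higher and 2.46% lower. The members' medians were -1.25 in KO cells and -1.10 in WT cells, and those of all genes -0.001 in KO cells and 0.008 in WT cells. These comparisons share their vehicle libraries with those of Dex. Conventional dendritic cell markers summed to 31.4 to 49.1 CPM in KO cells with Cort, where 2 of the 5 tested fell and 1 rose, and to 16.5 to 35.4 CPM in WT cells with Cort, where 1 fell. Mast cell and basophil markers summed to 1.28 to 1.67 CPM in KO cells and 1.34 to 5.105 CPM in WT cells with Cort. Their part was not tested. The WT count was the less stable, and ranged from 1 to 4 when 1 library was left out (1 without the Cort library numbered 2).

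Cd72 was at 185, 171, 153.0 and 163 CPM in KO cells with Cort and at 149, 149 and 146 CPM in WT cells with Cort. All lay below the vehicle libraries of their genotype. The log2 fold change was -1.25 ± 0.10 in KO cells (adjusted p = 4.8e-09) and -1.31 ± 0.11 in WT cells (adjusted p = 2.68e-08). Blnk was at 113, 118, 109 and 111 CPM in KO cells with Cort and at 118, 125 and 116 CPM in WT cells with Cort, again below all vehicle libraries. Its change was -0.47 ± 0.08 in KO cells (adjusted p = 0.000352) and -0.34 ± 0.10 in WT cells (adjusted p = 0.0346). The WT call of Blnk was lost without any of the 3 Cort libraries, without the vehicle library numbered 2 or 3, and without the WT libraries numbered 1 (adjusted p of 0.0633 to 0.133), with the change between -0.38 and -0.31 when 1 library was left out.

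Ighm was at 1.44, 0.653, 1.63 and 1.201 CPM in KO cells with Cort, below every KO vehicle library. The change was -2.02 ± 0.31 (adjusted p = 9.33e-05). In WT cells Ighm was at 5.48, 3.42 and 4.39 CPM with Cort, and the change was -1.10 ± 0.32 (adjusted p = 0.0425). The WT groups did not overlap, but the call was lost without the Cort library numbered 2 (adjusted p = 0.209) or 3 (0.126), without the vehicle library numbered 1 (-0.76, adjusted p = 0.265) or 3 (0.0557), without the filter (0.113) and when just those groups were fitted (0.0854). Without the WT libraries numbered 1 it was -0.94 (adjusted p = 0.129).

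Igkc had 4, 0, 0 and 6 counts in KO cells with Cort, at most 0.225 CPM, and the change was -3.45 ± 1.02 (adjusted p = 0.0271). In WT cells it was at 0.416, 0.480 and 0.240 CPM with Cort, and the change was -3.25 ± 0.88 (adjusted p = 0.0282). Neither group overlapped its vehicle group. Both calls rested on few counts. The KO call was lost without the Cort library numbered 1, 2 or 3, without the vehicle library numbered 1 or 3, without the 4 libraries high in Arg1, and without the filter (adjusted p of 0.0501 to 0.0915). The WT call was lost without any of the 3 Cort libraries, without the vehicle library numbered 1 (-2.29, adjusted p = 0.186), without the WT libraries numbered 1 (-2.35, adjusted p = 0.238), without the filter (0.0858) and by DESeq2 (0.0808).

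Cd79b was at 3.001, 2.53, 2.42 and 3.23 CPM in KO cells with Cort, where 1 vehicle library at 2.42 CPM lay within this range. The change of -0.38 ± 0.18 did not pass (adjusted p = 0.195). With the replicate number as a block it was -0.38 (adjusted p = 0.0367), and without the KO vehicle library numbered 2 it was -0.54 (adjusted p = 0.0485). In WT cells Cd79b was at 2.95, 2.11 and 2.88 CPM with Cort, below all 3 vehicle libraries. It fell by 0.92 ± 0.21 on the log2 scale (adjusted p = 0.00616), and by 0.78 (adjusted p = 0.0597) without the Cort library numbered 2.

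With IL4 Blnk rose while Cd72 and Cd79b fell, in both genotypes, and Ighm and Igkc did not pass. The Blnk call was lost in each genotype when certain libraries were left out, as given below. In KO cells 1 of the 5 members rose and 2 fell, where 26.5% of genes were called, 14.5% higher and 12% lower. In WT cells 1 rose and 2 fell, where 30.1% of genes were called, 14.8% higher and 15.3% lower. The medians were -0.42 in KO cells and -0.64 in WT cells, and those of all genes 0.005 in KO cells and -0.012 in WT cells.

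Blnk was at 164, 176 and 248 CPM in KO cells with IL4 and at 179.6, 181 and 187 CPM in WT cells with IL4. Of the KO libraries, 1 overlapped the vehicle group, whose highest library was at 165 CPM. The change was 0.32 ± 0.09 in KO cells (adjusted p = 0.0104) and 0.27 ± 0.10 in WT cells (adjusted p = 0.0377). The KO value was 0.11 (adjusted p = 0.210) without the IL4 library numbered 4. The WT call was lost without any of the 3 IL4 libraries, without the vehicle library numbered 1 or 3, without the WT libraries numbered 1 and without the filter (adjusted p of 0.0503 to 0.188). The KO call was also lost without the 4 libraries high in Arg1 (0.27, adjusted p = 0.0771) and with only the groups compared (0.168).

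Cd72 was at 285, 342 and 270.5 CPM in KO cells with IL4 and at 269.8, 265 and 285 CPM in WT cells with IL4. Both groups lay below their vehicle libraries. The change was -0.42 ± 0.11 in KO cells (adjusted p = 0.00485) and -0.42 ± 0.11 in WT cells (adjusted p = 0.0051). Cd79b was at 1.88, 2.10 and 2.51 CPM in KO cells with IL4 and at 3.36, 2.43 and 3.14 CPM in WT cells with IL4. Only the KO groups overlapped. The change of Cd79b was -0.75 ± 0.20 in KO cells (adjusted p = 0.00687) and -0.75 ± 0.20 in WT cells (adjusted p = 0.00643). The KO call of Cd79b was lost with only the groups compared (adjusted p = 0.0654), and the WT call without the IL4 library numbered 2 (-0.61, adjusted p = 0.0515).

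Without a replicate block the antibody genes did not pass with IL4. Ighm was at 3.20, 2.40 and 3.89 CPM in KO cells with IL4 and at 8.93, 6.53 and 2.94 CPM in WT cells with IL4. The WT values overlapped those with vehicle and the KO values did not. The change was -0.67 ± 0.32 in KO cells (adjusted p = 0.120) and -0.64 ± 0.32 in WT cells (adjusted p = 0.142). With the replicate number as a block it was -0.63 in KO cells (adjusted p = 0.0336) and -0.65 in WT cells (adjusted p = 0.0134). Without the WT IL4 library numbered 1 it was -1 in WT cells (adjusted p = 0.0335). Igkc was at 2.01, 0.786 and 2.03 CPM in KO cells with IL4, a change of 0.61 ± 0.74 (adjusted p = 0.596). In WT cells Igkc was at 3.32, 1.71 and 1.00 CPM, a change of -0.86 ± 0.75 (adjusted p = 0.440), whose sign turned without the vehicle library numbered 1 (0.10, adjusted p = 0.945).

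**Figure D4:**
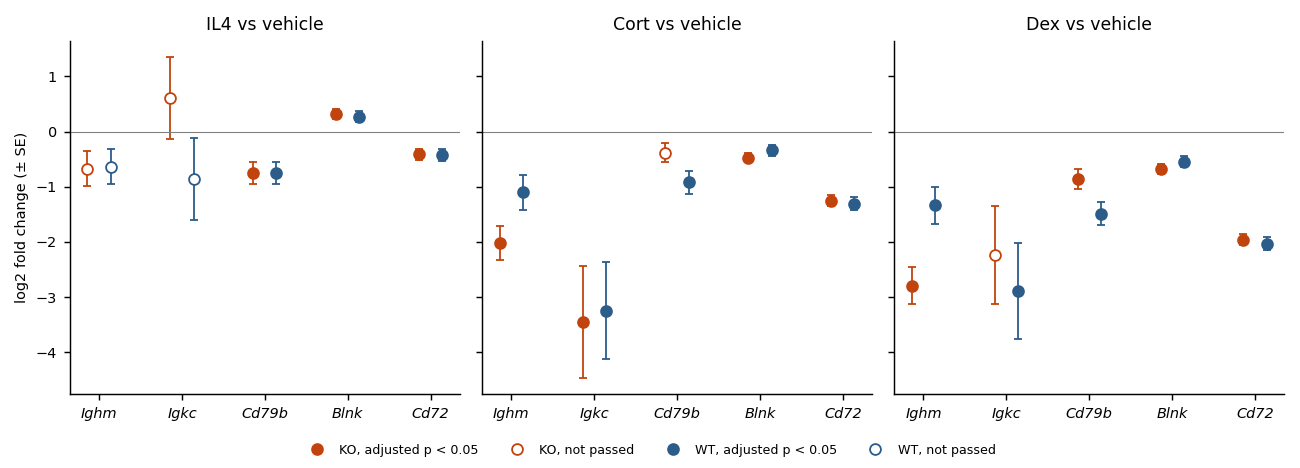
Log2 fold change (± SE) of the 5 members tested with IL4, Cort and Dex against vehicle, in KO cells (red, left of each pair) and WT cells (blue, right); filled points passed at an adjusted p under 0.05. Cd72 was at -0.42 with IL4 in both genotypes, at -1.25 in KO and -1.31 in WT with Cort and at -1.96 in KO and -2.03 in WT with Dex, and Igkc has the widest error bars.

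The glucocorticoids were compared directly, at doses that differ (100 nM Dex and 500 nM Cort). Cd72 was the member that passed, lower with Dex than with Cort. It averaged 103 ± 13.5 CPM in KO cells with Dex and 168 ± 13.4 CPM with Cort (SD, n = 4 each), a change of -0.71 ± 0.10 (adjusted p = 0.000287). In WT cells it averaged 89.5 ± 15.8 CPM with Dex and 148 ± 1.90 CPM with Cort (SD, n = 3 each), a change of -0.73 ± 0.11 (adjusted p = 0.00242), lost when just those groups were fitted (adjusted p = 0.216). Of all genes 0.322% were called in KO cells, 0.178% higher and 0.144% lower with Dex, and 0.185% in WT cells, 0.151% higher and 0.0343% lower. Within each genotype Blnk was lower in every Dex library than in any Cort library, with a change of -0.20 ± 0.08 in KO cells (adjusted p = 0.546) and of -0.21 ± 0.10 in WT cells (adjusted p = 1), which did not pass. Cd79b was at -0.475 ± 0.187 in KO cells (adjusted p = 0.486) and -0.57 ± 0.22 in WT cells (adjusted p = 1), and Ighm in KO cells at -0.77 ± 0.37 (adjusted p = 0.72).

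KO cultures held less Ighm than WT cultures with Dex and Cort. The difference passed narrowly with vehicle and did not pass with IL4, as given below with the share of all genes called. Blnk and Cd72 did not pass in any condition. Ighm averaged 0.725 ± 0.109 CPM in KO cells with Dex (SD, n = 4) and 3.78 ± 0.915 CPM in WT cells with Dex (SD, n = 3), a change of -2.36 ± 0.36 (adjusted p = 7.46e-05). With Cort it averaged 1.23 ± 0.425 CPM in KO cells (n = 4) and 4.43 ± 1.03 CPM in WT cells (n = 3), a change of -1.83 ± 0.33 (adjusted p = 0.000509). In both conditions every KO library lay below every WT library, with fitted levels 5.14-fold lower with Dex and 3.55-fold lower with Cort. Both calls held when each library was left out in turn, with adjusted p up to 0.000828 for Dex and 0.00645 for Cort. Without the WT libraries numbered 1 the values were -2.17 for Dex (adjusted p = 9.42e-05) and -1.65 for Cort (adjusted p = 0.000794).

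With vehicle Ighm averaged 5.07 ± 1.33 CPM in KO cells (SD, n = 4) and 9.53 ± 3.56 CPM in WT cells (SD, n = 3). The change of -0.91 ± 0.30 passed (adjusted p = 0.0318), by a narrow margin. It was lost without the KO vehicle library numbered 2, 3 or 4 (adjusted p of 0.0749 to 0.0821), without the WT vehicle library numbered 1 (-0.56, adjusted p = 0.278), without the filter (0.0782) and with only the groups compared (0.0533). It was -0.75 (adjusted p = 0.223) without the libraries high in Arg1 and -0.57 (adjusted p = 0.187) without the WT libraries numbered 1. With IL4 Ighm averaged 3.16 ± 0.745 CPM in KO cells and 6.13 ± 3.01 CPM in WT cells (SD, n = 3 each), a change of -0.95 ± 0.33 that did not pass (adjusted p = 0.0652). It passed by DESeq2 (-0.97, adjusted p = 0.0456) and without the WT IL4 library numbered 3 (-1.32, adjusted p = 0.00655).

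Of the 5 members tested, KO was lower for 1 with vehicle, where 18.8% of all genes were called, 8.47% higher and 10.3% lower. It was lower for 1 with Cort (14.4% called, 5.46% higher and 8.95% lower) and 1 with Dex (17.2% called, 6.7% higher and 10.5% lower), in each case Ighm. With IL4 edgeR called 0 (12.4% of genes called, 5.76% higher and 6.59% lower), 2 members had an unadjusted p under 0.05 and DESeq2 called 1. A share of 1 in 5 is near the background in these comparisons. Igkc with vehicle averaged 1.06 ± 0.237 CPM in KO cells and 3.65 ± 3.09 CPM in WT cells, a change of -1.78 ± 0.71 that did not pass (adjusted p = 0.0896). It was -0.82 (adjusted p = 0.516) without the WT libraries numbered 1, and passed by the edgeR 4 fit (adjusted p = 0.02). Cd79b with vehicle was at -0.46 ± 0.19 (adjusted p = 0.0919) and with IL4 at -0.465 ± 0.214 (adjusted p = 0.158). Without the KO vehicle library numbered 4, Cd79b with vehicle was at -0.63 (adjusted p = 0.0219). Cd72 and Blnk averaged 399 ± 24.1 and 157 ± 8.01 CPM in KO cells with vehicle, against 366 ± 28.4 and 152 ± 7.87 CPM in WT cells.

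Markers of other cells differed between the genotypes in the same libraries. Of the 8 stromal markers, KO was lower for 8 with vehicle and 7 each with IL4, Cort and Dex, with medians of -3.22 to -2.85. Of the 9 neutrophil markers tested, KO was lower for 5 with vehicle, 7 with IL4, 5 with Cort and 5 with Dex, with medians of -2.98 to -2.21. It was higher for 1 each with vehicle, IL4 and Dex. Among the 4 mast cell and basophil markers tested, KO was lower for 3 with Cort and 1 with Dex, and 0 passed with vehicle or IL4. Ebf1, a factor of early B cells that stromal cells also express, averaged 0.166 CPM in KO cells and 1.42 CPM in WT cells with vehicle, a change of -2.97 ± 0.64 (adjusted p = 0.00165), and was lower in KO in all 4 conditions. Ms4a1 had 5 counts in 4 KO libraries with vehicle and 8 counts in 3 WT libraries with vehicle. With Dex, Ms4a1 had 0 counts in all 7 libraries of both genotypes. Counts this low are too few to compare the genotypes. The part of these other cells in the Ighm difference was not tested.

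The difference between the genotypes in their response to treatment was tested for each member. edgeR called 0 of 5 for IL4 (0.0274% of genes called, 0.00685% higher and 0.0206% lower), 0 for Cort (0.0206% called, 0.00685% higher and 0.0137% lower) and 0 for Dex (0.185% called, 0.048% higher and 0.137% lower), and DESeq2 called 0 in each. At an unadjusted p under 0.05 there were 0 members for IL4, 0 for Cort and 2 for Dex. The Dex response of Ighm in KO minus that in WT was -1.45 ± 0.47 on the log2 scale, with an interval (2 SE) from -2.39 to -0.51 (adjusted p = 0.377). That of Cd79b was higher by 0.63 ± 0.28 (adjusted p = 0.754), the fall being smaller in KO cells. For Cd72 the Dex responses differed by 0.075 ± 0.148, with an interval from -0.22 to 0.37, and the IL4 responses by 0.01 ± 0.15, from -0.30 to 0.31.

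Across the 8 groups the order of levels differed between genes, in CPM means. For Ighm it ran from WT vehicle (9.53) through WT IL4 (6.13), KO vehicle (5.07), WT Cort (4.43), WT Dex (3.78) and KO IL4 (3.16) to KO Cort (1.23) and KO Dex (0.725). Neighbours in that order overlapped in range except KO IL4 and KO Cort. For Cd72 it ran from KO vehicle (399) through WT vehicle (366), KO IL4 (299), WT IL4 (273), KO Cort (168), WT Cort (148) and KO Dex (103) to WT Dex (89.5). There the ranges parted below WT IL4, below KO Cort and below WT Cort. For Blnk it ran from KO IL4 (196) through WT IL4 (182), KO vehicle (157), WT vehicle (152), WT Cort (120), KO Cort (113) and WT Dex (104) to KO Dex (98.2). The ranges of Blnk parted below WT IL4 and below WT vehicle. For Cd79b, from WT vehicle (5.01) to WT Dex (1.79), and for Igkc, from WT vehicle (3.65) to KO Cort (0.0943), all neighbours overlapped.

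The antibody genes were set against Blnk and Cd72 within each library, as log2 ratios of counts, which are free of the scaling of libraries. In all, 24 tests were made on 6 ratios, chosen after the values were seen, with exact permutation tests (two-sided) and Benjamini-Hochberg adjustment over the 24. Treatments were permuted within genotype, where the smallest p possible was 0.00143. Libraries of the same replicate number were not kept together, so these tests leave out any pairing by number. By the exact permutation test Ighm fell relative to Blnk with IL4 (difference -0.98, p = 0.00571, adjusted p = 0.0152), Cort (-1.17, p = 0.00286, adjusted p = 0.00857) and Dex (-1.43, p = 0.00286, adjusted p = 0.00857). Cd72 fell relative to Blnk with IL4 (-0.70), Cort (-0.87) and Dex (-1.39), each at that smallest p (adjusted p = 0.00857). The ratio of Ighm to Cd72 differed by -0.25 in KO cells and -0.30 in WT cells with IL4 (exact permutation p = 0.433, adjusted p = 0.495), which does not show that the genes changed alike. With the glucocorticoids it went opposite ways in the genotypes, by -0.84 in KO cells and 0.24 in WT cells with Cort and by -0.82 in KO cells and 0.75 in WT cells with Dex. The test that pools the genotypes therefore says nothing of either genotype for that ratio. In KO cells the ratio ran from -7.55 to -6.59 with Dex, against -6.55 to -5.94 with vehicle, and in WT cells from -4.84 to -4.41 with Dex, against -5.72 to -4.63 with vehicle.

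Cd79b behaved differently from Cd72. Its ratio to Cd72 rose with Cort (0.64, exact permutation p = 0.00286, adjusted p = 0.00857) and Dex (0.84, p = 0.00143, adjusted p = 0.00857). Relative to Blnk it fell with IL4 (-1.02, exact permutation p = 0.00286, adjusted p = 0.00857) and with Dex (-0.55, p = 0.0271, adjusted p = 0.049), with -0.14 in KO cells and -0.95 in WT cells for Dex. Ighm relative to Cd79b differed by -1.74 in KO cells and -0.13 in WT cells with Cort. The pooled fall (-0.94, exact permutation p = 0.0200, adjusted p = 0.048) was thus mostly that of KO cells. With Dex this ratio went opposite ways, by -1.96 in KO cells and 0.20 in WT cells (adjusted p = 0.0571 by the exact permutation test). The pooled test therefore says nothing of either genotype for Dex. Between genotypes, each replicate number was taken as 1 unit (mean of vehicle, Cort and Dex), which gave 4 KO and 3 WT units and a smallest p of 0.0286. KO was lower at that p for Ighm relative to Blnk (-1.68), to Cd72 (-1.89) and to Cd79b (-1.63), each with an adjusted p of 0.049 by the exact permutation test. The KO units lay below all WT units in these 3 ratios. Cd79b relative to Blnk differed by -0.05, with an adjusted p of 0.904.

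**Figure D5:**
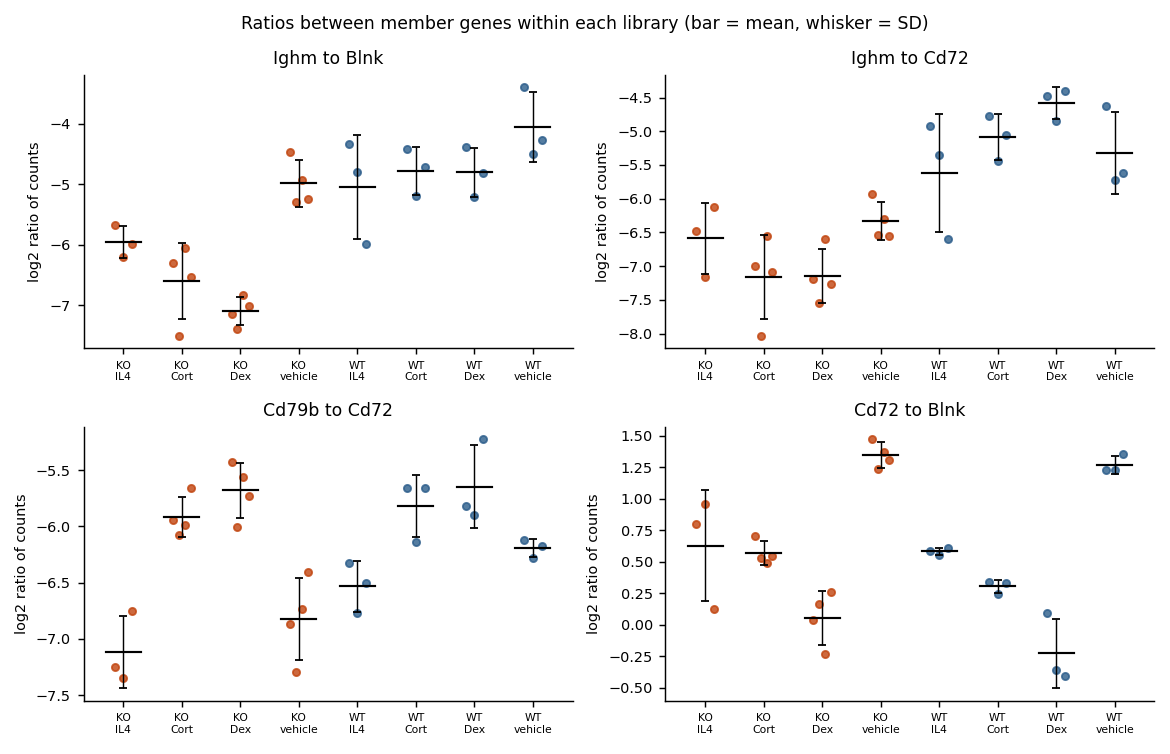
Log2 ratio of counts of Ighm to Blnk, Ighm to Cd72, Cd79b to Cd72 and Cd72 to Blnk in each library, by group (KO red, at the left; WT blue, at the right; bar, mean; whisker, SD; n = 3 or 4). Cd72 to Blnk is highest with vehicle in both genotypes, at a mean of 1.35 in KO and 1.27 in WT, and Ighm to Blnk is lowest in KO cells with Dex, at -7.09.

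The partners of these genes in receptor signalling are expressed in macrophages too, and with Dex they moved less uniformly. All 16 listed genes of B cell receptor signalling shared with myeloid cells were tested, at a summed 3579 to 4624 CPM per library. With Dex 2 rose and 5 fell in KO cells, and 1 rose and 4 fell in WT cells, with medians of -0.075 in KO and -0.13 in WT. With IL4 3 rose and 6 fell in KO cells and 3 rose and 10 fell in WT cells, with medians of -0.147 in KO and -0.373 in WT. Over all genes tested, 18.4% were called with Dex in KO cells and 13.7% in WT cells. With IL4 these shares were 26.5% in KO cells and 30.1% in WT cells. Syk, the kinase upstream of BLNK, averaged 467 CPM in KO and 424 CPM in WT cells with Dex, against 477 CPM in KO and 463 CPM in WT cells with vehicle. Ptpn6, the phosphatase that CD72 recruits, fell with IL4 by 0.92 ± 0.10 in WT cells (adjusted p = 1.36e-07), and with Dex by 0.51 ± 0.10 (adjusted p = 0.000634).

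Of 5 adaptors related to Blnk, 4 were tested. With IL4 Lat, the adaptor of T cell receptor signalling, rose by 1.47 ± 0.27 in KO cells (adjusted p = 0.000351) and by 2.20 ± 0.30 in WT cells (adjusted p = 5.01e-06). With Dex Lat fell by 1.24 ± 0.29 in KO cells (adjusted p = 0.00327) and by 1.22 ± 0.35 in WT cells (adjusted p = 0.019), so it went with Blnk in direction under both treatments. Lcp2 (SLP-76), the closest relative of BLNK, did not: it fell with IL4 in WT cells (-0.55 ± 0.13, adjusted p = 0.00211) and was at 0.24 ± 0.11 with Dex in KO cells (adjusted p = 0.161). Sema4d, the ligand of CD72, averaged 166 CPM in KO and 164 CPM in WT cells with Dex, against 285 CPM in KO and 323 CPM in WT cells with vehicle. It fell with Dex by 0.78 ± 0.18 in KO cells (adjusted p = 0.00359) and by 0.97 ± 0.21 in WT cells (adjusted p = 0.00246), and with IL4 by 1.09 ± 0.20 in KO cells and by 1.43 ± 0.21 in WT cells.

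Other B lineage genes moved in both directions. Il7r, the receptor of a cytokine that B cell precursors need, rose with IL4 by 0.75 ± 0.14 in KO cells (adjusted p = 0.000463) and by 1.06 ± 0.16 in WT cells (adjusted p = 1.4e-05), and was higher in KO than WT cells with vehicle (0.77 ± 0.15, adjusted p = 0.000617). Cd22, an inhibitory lectin like CD72, rose with IL4 by 0.81 ± 0.16 in KO cells and by 1.07 ± 0.18 in WT cells. Bank1, a B cell scaffold protein, fell with IL4 by 1.01 ± 0.32 in KO cells (adjusted p = 0.0225), and its change in WT cells was -1.497 ± 0.327 (adjusted p = 0.00101). With Dex Il7r fell by 0.55 ± 0.14 (adjusted p = 0.00547) and Cd22 by 0.45 ± 0.15 (adjusted p = 0.04) in KO cells. With Cort Il7r fell by 0.63 ± 0.14 in KO cells (adjusted p = 0.00264). Of the 7 tested, 0 rose and 2 fell with Dex in KO cells, 1 rose and 1 fell with Dex in WT cells, and 0 passed with Cort in WT cells. The shares called over all genes were 18.4% with Dex in KO cells, 13.7% with Dex in WT cells and 5.94% with Cort in WT cells. Of the 6 plasma cell genes tested, 2 rose and 3 fell with Dex in each genotype. Sdc1 (CD138) fell by 1.25 ± 0.17 in KO cells and by 1.01 ± 0.20 in WT cells, whereas Xbp1 rose by 0.45 ± 0.10 in KO cells and by 0.50 ± 0.11 in WT cells. Of 4 genes tested as markers of plasmacytoid dendritic cells, which can carry B lineage transcripts, 0 rose and 1 fell with Dex in KO cells and 0 passed with Dex in WT cells. T and NK cell markers summed to 11.01 to 31.3 CPM per library and mast cell and basophil markers to 0.702 to 10.65 CPM.

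Patterns over the 27 libraries were compared by Pearson's r of log2 CPM, as a description, since all genes share treatments and genotypes. Cd72 was most like Icam1 (r = 0.949) and Sh2d3c (0.949), and Blnk most like Stap1 (0.958) and Plxna3 (0.947). Stap1 stood among the 5 nearest genes of both Blnk and Cd72 (0.924 with Cd72). Among the 5 genes most like Ighm were Cpne8 (0.903) and Bdh2 (0.898). Igkc was most like Ccl22 (0.859) and Ccr7 (0.852), and Cd79b most like Ppfibp2 (0.856). Between members, r was 0.82 for Blnk with Cd72, 0.81 for Ighm with Igkc and 0.54 for Cd79b with Ighm. Pairs across these sets were also alike, at 0.72 for Blnk with Igkc, 0.71 for Cd72 with Cd79b and 0.67 for Cd72 with Igkc. The remaining pairs were at 0.42 to 0.59. Of deviations from group means, which leave out treatment and genotype, r was 0.43 for Ighm with Igkc, -0.11 for Blnk with Cd72 and 0.21 for Cd79b with Ighm.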

How the data were processed

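The authors deposited raw counts of reads per gene for 27 libraries, made with a directional kit and read as 50 bp pairs, per the labels. Per the submitters' processing notes, the tools were fastp 0.23.2, STAR 2.7.0, featureCounts and edgeR 3.38.4, with build mm10. All 29872 genes entered, and filterByExpr (minimum count 10) kept 14589. With TMM scaling, 1 model with a mean per group was fitted to all 27 libraries by edgeR 4.0.16 (R 4.3.3; quasi-likelihood, legacy, robust). P-values were adjusted by Benjamini-Hochberg over all genes tested, with calls under 0.05. CPM here uses scaled library sizes, and fold changes are fitted log2 values with SE. The fit was tested on simulated data for Dex against vehicle in WT cells. It called 31 of 33 genes made with a log2 change of -2, 28 of 32 with -1 and 20 of 32 with -0.585. Of genes made with no change it called 8 of 13992. All genes were given the same spread, below the common biological coefficient of variation of the data (0.122). Igkc varied more, so recovery at the spread of such sparse genes was not tested. Replicate pairs differed by more than counting noise (6.03 to 50.31 times the chi-square expected), so each library counted as 1.

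The members and gene lists were chosen with earlier results of these data known. Named genes were the members, up to 4 genes per list at 1 CPM or more in a group with the smallest adjusted p in a comparison, and the 5 genes most like each member. B lineage genes and Jchain given by counts, Syk with Dex and vehicle, Tesk1, Ncoa2 and Arg1 were named outside that rule, after their values were seen. Some genes of the lists are not reported here. Deviations of same-numbered libraries from their group means correlated at 0.11 to 0.71 in the WT treatments and in KO IL4 and Cort, over 0.1 in every pair, so numbers were taken to pair those libraries. A blocked value stands beside a result there where it changed the call.

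Alternatives were RLE scaling, no filter, DESeq2 1.42.0, the edgeR 4 fit, only the groups compared, the replicate block and each library left out. Added after seeing the data were leaving out the 4 libraries high in Arg1 or the WT libraries numbered 1.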

Additional observations from a re-analysis of the deposited data

Results flagged for a closer look

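In 3 of 17 groups of 4 libraries tested by Dixon's rule (members by group, where a gene was not at 0 throughout), 1 library lay apart from the other 3. Chance flags about 1 in 20 where values vary, a rate that does not apply to the first 2 below, since any value above 0 is flagged when the other 3 are at 0. Igkc in KO cells with Dex was at 1.02 CPM in the library numbered 1 and at 0 in the others, and that library also held 39 of the group's 41 counts in other constant segments. Cd79a in KO cells with Cort was at 0.0816 CPM, which is 2 counts, in the library numbered 2 and at 0 in the others. Cd72 in KO cells with Dex was at 82.6 CPM in the library numbered 3, below 107 to 111 CPM in the others.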

How the results depend on the processing

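The count of called members stayed within 1.5 times its value in the 15 comparisons under RLE scaling. Over all settings it changed by more than that, or to or from 0, in 27 cases, a number that leaves out smaller changes. Without the filter, 3 members passed for Cort in WT cells and 0 for KO against WT with vehicle. In KO against WT with vehicle, the edgeR 4 fit called 2 and the fit of only the groups compared 0. DESeq2 called 1 for KO against WT with IL4. With only the groups compared, 1 passed for IL4 in KO cells and 0 for Dex against Cort in WT cells. Without the 4 libraries high in Arg1, 0 passed for KO against WT with vehicle. Without the WT libraries numbered 1, 2 passed for Cort in WT cells, 0 for KO against WT with vehicle and 2 for KO against WT with Dex.

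With 1 library left out, the counts ranged from 2 to 3 for IL4 in KO cells, 1 to 3 for IL4 in WT cells, 3 to 5 for Cort in KO cells, 1 to 4 for Cort in WT cells, 4 to 5 for Dex in KO cells, 3 to 5 for Dex in WT cells, and, for KO against WT, 0 to 1 with vehicle, 0 to 1 with IL4 and 1 to 2 with Dex. The sign turned for Igkc with IL4 in WT cells, ranging from -1.42 to 0.10, with 0.10 without the WT vehicle library numbered 1. With a group left at 2 libraries the spread came from all groups. The causes were not tested.

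With the replicate block across genotypes, 3 members passed for KO against WT with vehicle (Igkc and Cd79b added) and 2 with IL4 (Ighm and Cd79b), and within genotype 1 passed for the difference of the Dex responses (Ighm, -1.47, adjusted p = 0.0348). Same-numbered libraries of the genotypes did not deviate together (correlations of -0.24 to 0.03), nor did all KO pairs of Dex and vehicle (0.01 to 0.36), so these share a number only. There the block gave Igkc with Dex in KO cells -2.38 (adjusted p = 0.0116). It changed no other call than those given with the results. Depth limits Cd79a and Igkc most, with 0 to 8 and 0 to 198 counts per library.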

Other observations

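Ighm and Cd79b stayed detectable in libraries where some sparse B lineage markers were at 0. Those markers, Cd79a, Ms4a1 and Pax5, had at most 8 counts in any library. Other listed genes (Cd37, Il7r, Cd22, Bank1, Bach2, Ebf1 and Fcrla) had counts in all 27 libraries. In KO cells with Dex, Cd79a, Ms4a1 and Pax5 had 0 counts in all 4 libraries, while Ighm had 77 counts and Cd79b 211 counts over the group. In WT cells with Dex, Ighm had 274 counts and Cd79b 132 counts over 3 libraries, with 4 of Cd79a, 1 of Pax5 and 0 of Ms4a1. The coefficient of variation between libraries of a group ran from 7.32% to 27.2% for Cd79b over the 8 groups, where counting alone gives 8.19% to 15.1%. For Igkc it ran from 22.4% to 200%, where counting alone gives 9.78% to 63.25%.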
